A study of Mus musculus with 12 samples.

Results

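Serpina1e, Ttr and Bche code for proteins that the liver releases into plasma, and their RNA was followed in livers of mice that lack the plasma scavengers hemopexin, haptoglobin or both. The members are the measured spots that take the annotation of these 3 genes in reversed spot order, a numbering inferred from the values. They are 6 of 4167 measured spots, 3 of 2151 measured clones and 3 of 918 named genes. Each gene was represented by 1 clone, printed as a pair of spots. The genes were chosen by their ratios on these same arrays, of Serpina1e in the mice that lack both proteins, of Ttr in those that lack haptoglobin and of Bche in those that lack hemopexin. These 3 ratios, and differences between nulls that contain them, are therefore a description with no test.

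The study hybridised liver RNA to 12 spotted cDNA arrays with 2 colours. The groups were hemopexin-null mice (Hx-null, Hx-/- with haptoglobin given as Hp+), haptoglobin-null mice (Hp-null, Hp-/- with hemopexin given as Hx+) and mice null for both (HpHx-null), each set against a pool from wild-type littermates (Hp+ and Hx+). The second allele of the genes given as + is not stated. All mice were adults descended from parents heterozygous for both deletions, on a mixed C57/BLJ6 and 129Sv background, and all livers were perfused with PBS. Livers of at least 5 mice per genotype were pooled, and 4 arrays were made per genotype, with the null pool labelled with Cy5 on replicates 1 and 2 and with Cy3 on replicates 3 and 4. The labels describe 1 pool per genotype, so an error or p-value below measures the spread between arrays of 1 pair of pools, not between mice.

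Serpina1e belongs to the alpha-1-antitrypsin family of serine protease inhibitors, which hepatocytes secrete and which restrain proteases such as neutrophil elastase. Ttr is transthyretin, the carrier of thyroid hormone and, with retinol-binding protein, of vitamin A. Bche is butyrylcholinesterase, an esterase that the liver releases into plasma and that cleaves choline esters. Hemopexin and haptoglobin, which bind free heme and free hemoglobin, are themselves secreted by hepatocytes, so all 3 genes are products of the same cells and leave them by the same secretory route. Because bulk liver was measured, fewer cells of a type and less RNA per cell cannot be told apart.

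Serpina1e is 1 of a cluster of closely related genes in the mouse, and this may limit what its spots can measure. The windows around the RefSeq start sites (build GRCm38.p6, 300 bases, most of them before the start) are shown to make this likeness visible, with Bche for contrast and with the letters GTTAAT in capitals. GTTAAT is the half-site of hepatocyte nuclear factor 1, a transcription factor of hepatocytes. Serpina1e lies at chr12:103956848-103957147 and Bche at chr3:73708366-73708665, both on the minus strand, and the sequences run 5′ to 3′ along the gene.
Serpina1e: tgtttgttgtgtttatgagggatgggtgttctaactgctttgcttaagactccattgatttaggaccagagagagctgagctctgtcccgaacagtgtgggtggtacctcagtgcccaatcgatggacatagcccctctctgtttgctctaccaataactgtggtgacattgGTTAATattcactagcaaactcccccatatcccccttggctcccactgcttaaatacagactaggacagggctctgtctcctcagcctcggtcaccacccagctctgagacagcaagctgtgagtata
Bche: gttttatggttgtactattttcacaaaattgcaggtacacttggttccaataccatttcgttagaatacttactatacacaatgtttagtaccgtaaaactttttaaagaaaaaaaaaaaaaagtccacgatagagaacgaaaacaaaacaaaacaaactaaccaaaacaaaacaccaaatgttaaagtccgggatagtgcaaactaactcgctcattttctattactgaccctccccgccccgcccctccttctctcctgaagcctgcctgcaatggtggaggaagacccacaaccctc
Both strands were searched for GTTAAT and for the TATA box TATAAA, which do not overlap each other here. GTTAAT was found 1 time in the Serpina1e window, beginning 78 bases before the start, and also 1 time in each window of Serpina1a, Serpina1b, Serpina1c and Serpina1d. In those paralogs it began 21, 26, 27 and 16 bases before the annotated start, in the same order. It occurred in 7.10% of 32851 windows of this length. TATAAA occurred in 13.6% of the windows and in none of these 6. Over the stretch that could be aligned, the Serpina1e window was identical to that of Serpina1b at 98.4% of 248 bases, to Serpina1d at 96.6% of 233, to Serpina1a at 95.9% of 243 and to Serpina1c at 95.2% of 249. The longest exact run shared with the Bche window was 7 bases, against 119 with Serpina1b. The platform annotation lists 2 spots for Serpina1e and 0 for Serpina1a, Serpina1b, Serpina1c or Serpina1d. The windows lie mostly before the start, so their likeness does not show how alike the transcripts are. Transcript sequences were not used here, so which of these paralogs hybridised to the Serpina1e spots cannot be told apart, and the gene is uncertain to that extent.

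The values are log2 ratios with the sign in which they were deposited, after the median over all features of each array was set to 0. A feature is 1 gene, or 1 clone that the annotation ties to no single gene. The direction of the ratios is not given in the sources used here. Only the channel order in the labels speaks for null over wild-type, in which case a positive value means more RNA in the null pool. Arrays held 3009 to 4165 values. They fell into 2 blocks of 6 arrays, called A and B, by the sign of their loading on the first component, which held 71.5% of the sum of squares. Arrays of 1 block correlated at 0.40 to 0.90, and arrays of different blocks at -0.80 to -0.075. Each block held 2 arrays of every genotype, and 4 of 6 arrays of A but 2 of 6 of B had the null pool in Cy5. In Hx-null the blocks matched the labelled dyes, with replicates 1 and 2 in A and replicates 3 and 4 in B. Block and dye therefore cannot be told apart in that genotype. HpHx-null replicate 3 stood apart, with a median correlation of 0.57 to its own block against 0.72 to 0.84 for the other arrays. Of the 12 hepatocyte markers, 4 were measured (Alb, Apoa1, Ttr and Serpina1e), of the 12 macrophage markers 1 (Fcgr1), and of the markers of the other 9 cell types 0. The annotation names no spot for haptoglobin or hemopexin, so the deletions could not be checked.

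Serpina1e had the widest swings of the 3 genes. In Hx-null its log2 ratios were 1.41, 2.63, -0.83 and -0.59 on replicates 1 to 4. In Hp-null they were -0.72, 1.73, 2.37 and -1.24. In HpHx-null they were 2.31, -0.11, 0.42 and 2.84. All 6 arrays of block A were high, from 1.41 to 2.84, and all 6 arrays of block B were lower, from -1.24 to 0.42, whatever the genotype. Serpina1e stood above 99.0% or more of the measured clones on each array of block A. On block B it stood at the 6.97th to 39.4th percentile, except on HpHx-null replicate 3, where it was at the 91.5th. The paired spots of the clone differed by 0.05 to 0.34, far less than the arrays did.

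**Figure D1:**
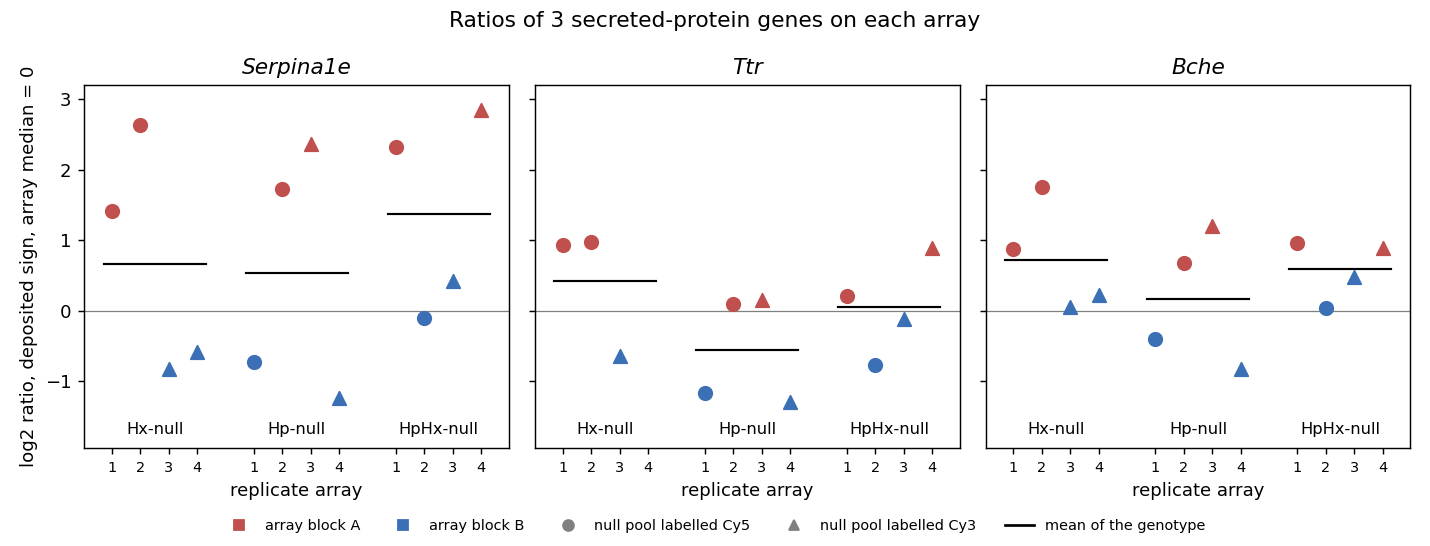
Each point is the log2 ratio of the gene on 1 array (y axis, deposited sign, median of the array at 0), set out by genotype and replicate number (x axis); red and blue mark array blocks A and B, circles and triangles the labelled dye of the null pool, and black lines the mean of a genotype. Serpina1e reaches 2.84 in block A and -1.24 in block B, and for all 3 genes the red points of a genotype lie above its blue points.

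The mean ratio of Serpina1e was positive in all 3 nulls. In HpHx-null it was 1.37 ± 1.43 (SD, n = 4 arrays), a 2.58-fold size, with positive values on 3 of 4 arrays. It was 0.65 ± 1.66 in Hx-null and 0.53 ± 1.78 in Hp-null (SD, n = 4 arrays each), with 2 of 4 arrays positive in either. In HpHx-null it ranked highest of 1711 features, in Hp-null 19th of 2017 and in Hx-null 29th of 1865. The order HpHx-null, Hx-null, Hp-null held for the means, but each group spanned both blocks and overlapped the others.

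Most of that spread followed the array blocks. Fitted with limma over all features, with a gene-specific term for the labelled dyes, the ratio in HpHx-null had an SE of 0.76; with a term for the array blocks in its place the SE was 0.18. The same exchange took the SE from 0.76 to 0.18 in Hx-null and in Hp-null. The SE rests on a spread shared by all genotypes, and within Hx-null blocks and dyes coincide. The blocks were drawn from these same ratios, which SEs and p-values with the block term do not count. Neither the Hx-null nor the Hp-null ratio passed. The limma adjusted p for Serpina1e was 1.0 in Hx-null and in Hp-null with the labelled dyes, and 0.0781 and 0.138 with the array blocks. Of all features, 0.643% passed in Hx-null and 0% in Hp-null and HpHx-null with the labelled dyes, at an adjusted p under 0.05; at an unadjusted p under 0.05 the last 2 counts were 49 and 100 features, and limma without moderation also gave 0. With the array blocks 2.04%, 2.68% and 5.32% passed in the same order. In Hx-null the value came under the threshold with the array blocks when Hx-null replicate 1 (adjusted p = 0.0235) or HpHx-null replicate 3 (adjusted p = 0.0481) was left out, and without median centring (adjusted p = 0.0198). In Hp-null it did so after quantile normalization (adjusted p = 0.0237).

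Within each block the double null was highest. In block A the 2 arrays of HpHx-null averaged 2.58, against 2.02 for Hx-null and 2.05 for Hp-null, but 1 array of each single null lay at or above the lower HpHx-null array. In block B the 2 HpHx-null arrays averaged 0.16, against -0.71 and -0.98, and both lay above all 4 arrays of the single nulls. Between the single nulls Serpina1e differed by -0.12 (Hp-null minus Hx-null, SE 0.26, limma adjusted p = 0.857 with the array blocks). Of all features 1.08% passed in this comparison, all with a negative sign. HpHx-null was above Hx-null by 0.71 (SE 0.26) and above Hp-null by 0.83 (SE 0.26), and lay 0.18 (SE 0.32) above the sum of the single nulls, a contrast in which the wild-type pool does not cancel. With single arrays left out, the HpHx-null ratio ran from 1.21 to 1.52 with the array blocks, and after quantile normalization it was 1.14. With the labelled dyes it ran from 0.68 without HpHx-null replicate 4 to 2.05 without HpHx-null replicate 2. Under that term the difference from Hx-null ran from 0.02 to 1.40 over the same arrays. The difference from Hp-null was 0.15 without HpHx-null replicate 4 and reached 1.66 when Hp-null replicate 3 was left out, and that from the sum was -0.51 and 1.0 in these fits. With the array blocks the difference from the sum was -0.05 without Hx-null replicate 1. Turned by the labelled dyes, HpHx-null minus Hx-null was -1.63 (SE 1.11).

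Ttr was measured on 11 arrays, all but Hx-null replicate 4. In Hx-null its log2 ratios were 0.93, 0.97 and -0.65 on replicates 1 to 3. In Hp-null they were -1.17, 0.09, 0.15 and -1.30. In HpHx-null they were 0.21, -0.78, -0.12 and 0.88. Hp-null gave the lowest values of both blocks: its block A arrays, at 0.09 and 0.15, lay below all 4 others of block A, and its block B arrays, at -1.17 and -1.30, below all 3 others of block B. Hp-null overlapped the other nulls only when the blocks were pooled.

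The mean of Ttr in Hp-null was -0.55 ± 0.78 (SD, n = 4 arrays), a 1.47-fold size, and ranked 15th from the lowest of 2017 features. Its SE was 0.38 with the labelled dyes and 0.13 with the array blocks. With single arrays left out it ran from -0.58 to -0.52 with the array blocks, and with the labelled dyes from -0.86 without Hp-null replicate 3 to -0.29 without Hp-null replicate 1. After quantile normalization it was -0.33 with the array blocks. In Hx-null the fitted ratio depended on the term, since an array was missing: it was 0.39 (SE 0.45) with the labelled dyes and 0.20 (SE 0.15) with the array blocks, and passed with neither (limma adjusted p = 1.0 and 0.601). In HpHx-null it was 0.05 (SE 0.13, limma adjusted p = 0.933 with the array blocks) and -0.13 when HpHx-null replicate 3 was left out. The difference Hp-null minus Hx-null was -0.76 (SE 0.19), and HpHx-null lay above Hp-null by 0.60 (SE 0.18). HpHx-null and Hx-null differed by -0.16 (SE 0.19, limma adjusted p = 0.997 with the array blocks; 0.181% of features passed). The double null lay 0.40 (SE 0.23) above the sum of the single nulls.

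Bche was measured on all 12 arrays. In Hx-null its log2 ratios were 0.87, 1.75, 0.05 and 0.22 on replicates 1 to 4. In Hp-null they were -0.40, 0.67, 1.21 and -0.83. In HpHx-null they were 0.96, 0.04, 0.47 and 0.89. All 4 arrays of Hx-null, whose ratio was used to choose the gene, were positive, the lowest at 0.05. All 4 arrays of HpHx-null were positive, the lowest at 0.04, against 2 of 4 in Hp-null. In block B both Hp-null arrays lay below the other 4. In block A the genotypes overlapped.

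The mean of Bche was highest in Hx-null at 0.72 ± 0.77, followed by 0.59 ± 0.43 in HpHx-null and 0.16 ± 0.94 in Hp-null (SD, n = 4 arrays each). These are 1.65-fold, 1.5-fold and 1.12-fold sizes, and ranks of 24 of 1865, 71 of 1711 and 221 of 2017 features from the highest. With the array blocks the SE was 0.16 in each null, against 0.35 with the labelled dyes. The HpHx-null ratio passed with the array blocks (limma adjusted p = 0.0458), as did 5.03% of all features with a positive and 0.292% with a negative sign, and not with the labelled dyes (adjusted p = 1.0). The call does not count that the blocks were drawn from these same ratios. With the array blocks it held without median centring (limma adjusted p = 0.0146) and after quantile normalization (limma adjusted p = 0.0138). The call was lost without moderation of the variances, where 0 of 1711 features passed. It was also lost when any 1 of 8 of the 12 arrays was left out, all 4 HpHx-null arrays among them, and the ratio was 0.42 (adjusted p = 0.301) without HpHx-null replicate 3. The Hp-null ratio did not pass with the array blocks (limma adjusted p = 0.608). HpHx-null lay above Hp-null by 0.43 (SE 0.22, limma adjusted p = 0.423 with the array blocks; 0% of features passed, 214 at an unadjusted p under 0.05). The difference was -0.13 (SE 0.22) for HpHx-null minus Hx-null, -0.56 (SE 0.22) for Hp-null minus Hx-null and -0.29 (SE 0.27) for HpHx-null minus the sum of the single nulls.

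**Figure D2:**
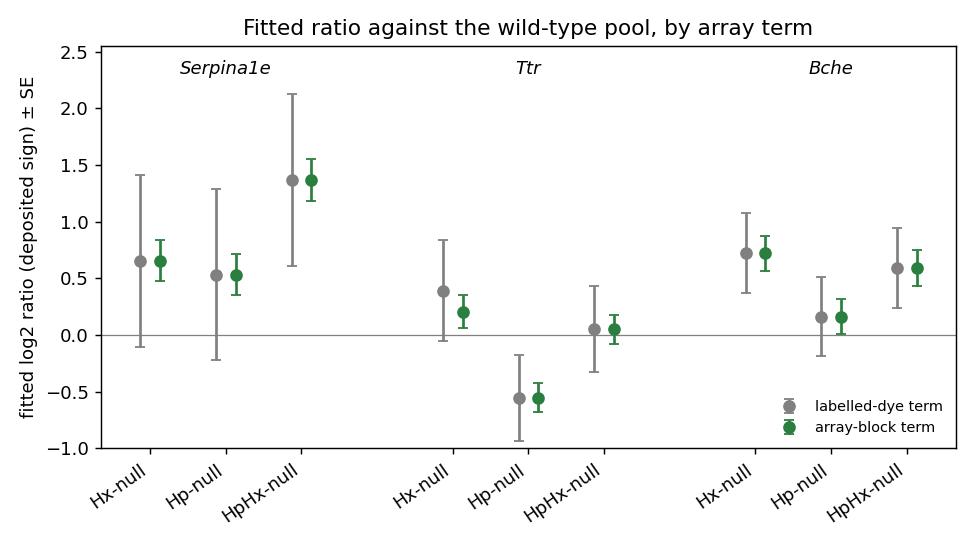
Points are the fitted log2 ratio against the wild-type pool (y axis, deposited sign) for each gene and null genotype (x axis), and bars its SE; grey is the fit with the labelled-dye term, green the fit with the array-block term. The block term narrows the bars, from 0.76 to 0.18 for Serpina1e, and moves only the Ttr ratio in Hx-null, from 0.39 to 0.20.

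With the deposited sign, the 3 genes shared a pattern over the arrays that ran with the array blocks. Over the arrays that both held, Serpina1e correlated with Ttr at 0.89 (n = 11 arrays) and with Bche at 0.91 (n = 12), and Ttr with Bche at 0.91 (n = 11). After the mean of each block was taken out, these were 0.52, 0.69 and 0.69. The points share arrays, pools and centring, and the correlations are a description. Such values are not particular to these genes. With the blocks left in, Bche correlated with Haus2 at 0.94, with Idh1 at 0.95 and with Trmt5 at -0.06. The fitted difference between the blocks, A minus B, was 2.73 (SE 0.21) for Serpina1e, 1.28 (SE 0.15) for Ttr and 1.13 (SE 0.18) for Bche. Serpina1e had the third highest of 1646 features and the second highest of 764 named genes, after the catalase gene Cat at 2.98. Ttr and Bche ranked 261st and 319th of the 1646.

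**Figure D3:**
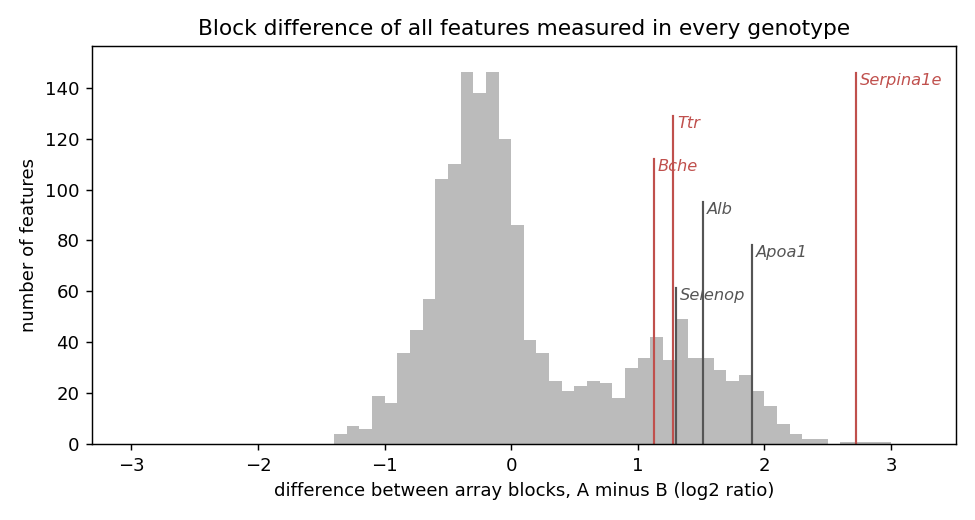
The histogram counts features (y axis) by the difference between array blocks A and B in log2 ratio (x axis), and vertical lines mark the 3 genes in red and albumin, apolipoprotein A-I and selenoprotein P in grey. Of 1646 features 363 lie above 1, in a separate hump that holds all 6 marked genes; Serpina1e lies at its far end, at 2.73.

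Other genes of secreted plasma proteins were divided. Of 144 such genes on a list, 30 are in the annotation, 12 were measured and 9 had a block difference. Beside the 3 genes, it was above 1 in 3 of the 6 others, against 22.1% of all features: albumin (Alb) at 1.51, apolipoprotein A-I (Apoa1) at 1.90 and selenoprotein P (Selenop) at 1.30. The other 3, the growth factor Igf1, the paraoxonase Pon3 and the chemoattractant Rarres2, lay between -0.56 and 0.07. Of 7 genes of the secretory pathway with a value, 3 were above 1, the chaperones Calr, Hspa5 and Pdia3, from 1.16 to 1.61, and the other 4 lay between -0.96 and -0.18.

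Against wild-type, none of the other genes of the list passed. With the array blocks, 0 of 7 passed in limma in Hx-null, 0 of 8 in Hp-null and 0 of 6 in HpHx-null, and 0, 2 and 1 had an unadjusted p under 0.05. Of all features 1.82% passed with a positive sign in Hx-null, 1.83% with a negative sign in Hp-null and 5.03% with a positive sign in HpHx-null. Among the 3 genes, Bche in HpHx-null was the single ratio past the threshold with that term of those not used for the choice. The labelled-dye term let 0 genes of the list pass in any null. The others had a median ratio of 0.13, -0.01 and 0.26 in the same order of nulls, against -0.02, -0.01 and -0.04 over all features. Albumin, the most abundant plasma protein, had ratios of 0.20 (SE 0.23), -0.01 (SE 0.23) and 0.41 (SE 0.23). Selenop, the plasma carrier of selenium, had 0.26, -0.33 and 0.35 (SE 0.13 each, limma adjusted p = 0.398, 0.177 and 0.170).

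**Figure D4:**
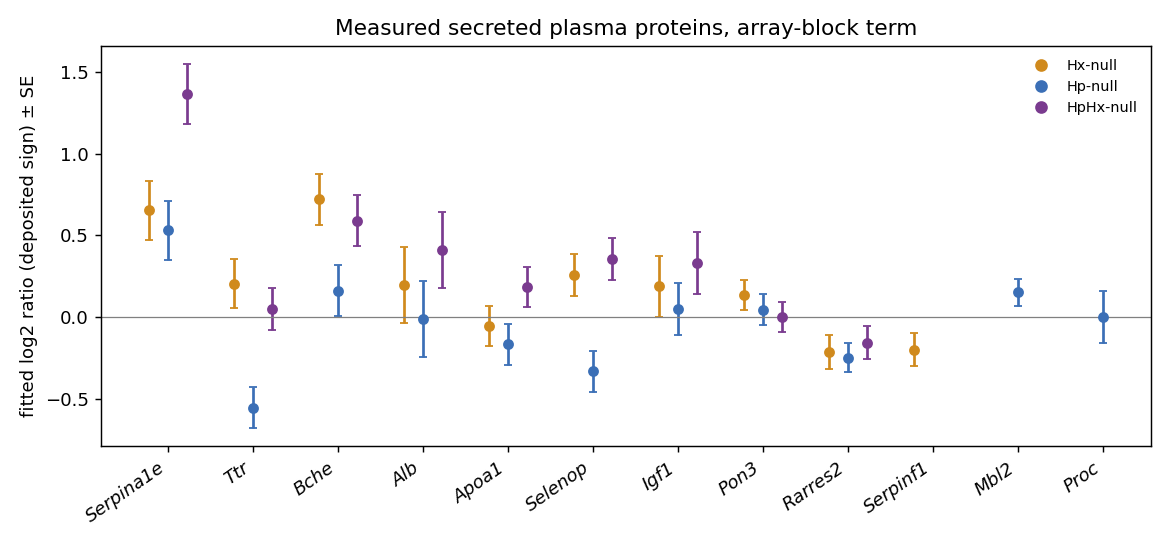
Points are fitted log2 ratios (y axis, deposited sign, array-block term) and bars their SE for the measured genes of secreted plasma proteins (x axis), coloured by null genotype; a gene without a point was not tested in that genotype. The HpHx-null ratio of Serpina1e, 1.37, is the highest and the Hp-null ratio of Ttr, -0.55, the lowest.

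Among related gene groups few members were measured. Of 47 serpins and other inhibitors 4 were, Serpina1e among them, and none of the other 3 passed in limma with either term, nor had an unadjusted p under 0.05 (0 of 3). Serpinb6a stood at 0.19 (Hx-null) and 0.04 (Hp-null), and Serpinf1 at -0.20 (Hx-null). Spint2 had -0.17, 0.17 and 0.04 in Hx-null, Hp-null and HpHx-null. Of 34 esterases and lipid-binding secreted proteins 6 were measured. The carboxylesterase Ces1d had a ratio of -0.96 (SE 0.11, limma adjusted p = 0.00352 with the array blocks, 1.0 with the labelled dyes) in Hp-null. It was negative on the 3 arrays that held it, at -1.36, -0.66 and -1.10, and was not tested in the other nulls. Turned by the array blocks, Ces1d had 0.60 (SE 0.36), and by the labelled dyes 0.13 (SE 0.45). The retinol receptor Stra6 lay between -0.06 and 0.04 in the 3 nulls. Of 73 secretory pathway genes 8 were measured, and with the array blocks only the chaperone Hspa5 passed, at -0.54 (SE 0.12, limma adjusted p = 0.0363) in Hp-null. Turned by the array blocks, that ratio was 0.52 (SE 0.19), and by the labelled dyes -0.20 (SE 0.29). Of 40 liver transcription factors the estrogen receptor Esr1 alone was measured, at 0.11, -0.14 and -0.16 in Hx-null, Hp-null and HpHx-null. Of 36 genes with higher expression in male liver 3 were measured, and they differed in sign. Serpina1e, which is among them, had 0.65, 0.53 and 1.37 in Hx-null, Hp-null and HpHx-null. With the deposited sign, the glutathione transferase gene Gstp1 had -0.87, -0.59 and -0.92 in the same order of nulls (limma adjusted p = 0.00115, 0.0323 and 0.00356 with the array blocks). Nudt7, a peroxisomal coenzyme A hydrolase, had -0.71, -0.36 and -0.63 (limma adjusted p = 0.00115, 0.0793 and 0.0102). Neither gene passed with the labelled dyes. Without moderation of the variances, the calls of Ces1d and Hspa5 were lost, as were that of Gstp1 in Hp-null and those of Gstp1 and Nudt7 in HpHx-null. Turned by the array blocks, Gstp1 had 0.64, 0.54 and 0.31 and Nudt7 0.11, 0.13 and -0.10; turned by the labelled dyes, they had 0.64, 0.01 and -0.28, and 0.11, -0.07 and -0.27. Negative calls with the array blocks made up 0.214%, 1.83% and 0.292% of all features in Hx-null, Hp-null and HpHx-null. The sex of the pooled mice is not given in the labels.

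For each of the 3 genes, the named genes closest in pattern were found by Pearson correlation over its arrays after the block means were taken out. For Serpina1e, among 545 genes over 12 arrays, these were Rbbp5 at 0.88, Atp5md at 0.84 and Idh1 at 0.83. Rbbp5 had ratios of 0.55, 0.44 and 0.97 in Hx-null, Hp-null and HpHx-null, the order of Serpina1e. Atp5md had 0.46, 0.36 and 0.78, and Idh1 had 0.08, -0.02 and 0.09. For Ttr, among 572 genes over 11 arrays, they were Selenop at 0.96, Pafah1b1 at 0.95 and Fcgr1 at 0.91. Selenop also correlated with Ttr at 0.99 when the blocks were left in, whereas Fcgr1, a macrophage receptor, did so at 0.12. Fcgr1, the single macrophage marker measured, had ratios of 0.43, -0.08 and 0.52 in the order Hx-null, Hp-null, HpHx-null. Its values were 0.28 to 0.56 on the 4 Hx-null arrays, -0.39 to 0.22 on the 4 Hp-null arrays and 0.09 to 1.04 on the 4 HpHx-null arrays, so that Hp-null was lowest, as for Ttr and Bche. The part of macrophages in these ratios was not tested. For Bche, among 545 genes over 12 arrays, they were Haus2 at 0.97, Trmt5 at 0.92 and Idh1 at 0.90. Trmt5 had ratios of 0.61, 0.19 and 0.54, close to the 0.72, 0.16 and 0.59 of Bche. Haus2 had 0.19, -0.13 and 0.11, and Idh1 the ratios given above. All these genes were picked for their likeness on the same arrays. A match of ratios therefore follows in part from the choice and is a description only.

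Because arrays that share a labelled dye lay in opposite blocks in Hp-null and HpHx-null, each ratio was also computed with signs turned. In Hx-null both turnings are the same, since its blocks match its labelled dyes. Turned by labelled dye, which would suit values of Cy5 over Cy3, Serpina1e had 1.36, -0.03 and -0.26 in the order Hx-null, Hp-null, HpHx-null (SE 0.78 each). Ttr then had 0.85, 0.02 and -0.33, and Bche 0.59, -0.03 and -0.09. Turned by block, so that those of block B changed sign, Serpina1e had 1.36, 1.51 and 1.21 (SE 0.50 each), Ttr 0.85, 0.68 and 0.50, and Bche 0.59, 0.77 and 0.33. In that reading all 9 ratios were positive, and Ttr in Hp-null changed sign from -0.55 to 0.68. Albumin then had 1.30, 0.40 and 0.57 and Apoa1 1.03, 0.88 and 0.94. The blocks were drawn from these values, and 45.5%, 54.5% and 39.9% of all features passed in limma in this reading, so nothing is read from it. Which reading applies was not tested.

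**Figure D5:**
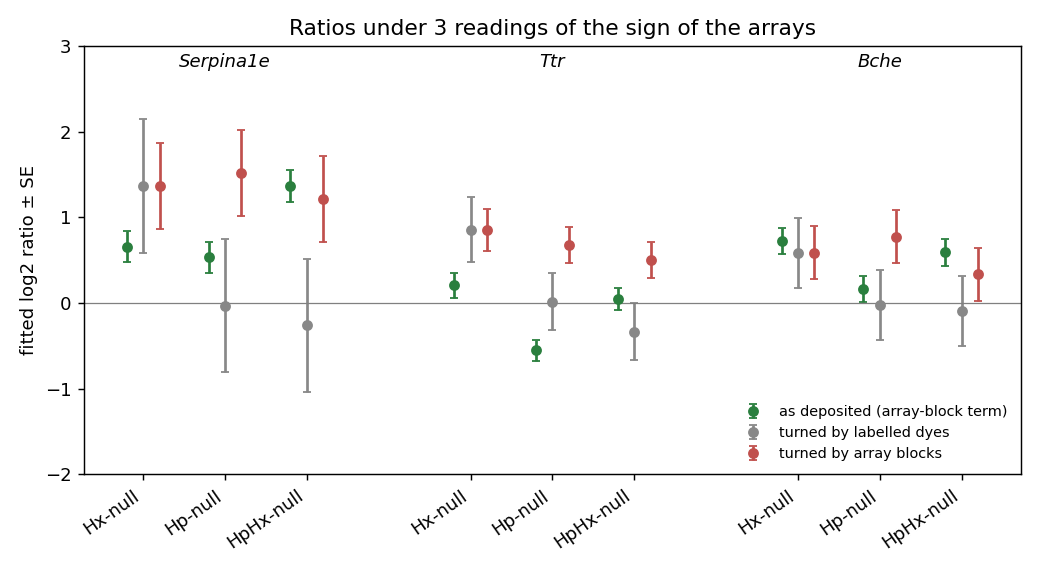
Points are fitted log2 ratios (y axis) and bars their SE for each gene and null genotype (x axis) under 3 readings of the sign of the arrays: as deposited in green, turned by the labelled dyes in grey, turned by the array blocks in red. Ttr in Hp-null stands at -0.55, 0.02 and 0.68 in turn, and Serpina1e in HpHx-null at 1.37, -0.26 and 1.21.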

How the data were processed

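The authors deposited 1 table of log ratios for 31200 spots and 12 arrays, taken here as log2 values; no source used here gives the log base, normalization, filter on weak spots or direction. Per the labels, each null pool and the wild-type pool were labelled directly with Cy3 or Cy5. Neighbouring spots were averaged as 1 clone and clones of 1 gene as 1 feature, which gave 2052 features. Spots took the platform annotation in reversed order, the first spot that of the last. This numbering was inferred from the values in earlier work, and every gene name rests on it; by equal spot number, 0 of the 6 spots named for the 3 genes were measured. Each array was centred on its median over features.

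Ratios were fitted with limma 3.58.1 (R 4.3.3; lmFit, robust eBayes, Benjamini-Hochberg over all features tested) to the 12 arrays together, with a coefficient for each genotype and a term for the labelled dye. A feature needed values on 3 of 4 arrays of each genotype compared, and 2 with an array left out. A term for the array blocks was an alternative. The fit was run on simulated data whose block pattern was fixed in advance. That does not check the drawing of the blocks from the same ratios. The members, gene lists and the block term were chosen with earlier results of these data known. Named genes were the members, the listed genes that passed with the block term or had the 4 largest ratios of their list, and the 3 genes most similar to each member. Kdelr2 and Stt3a met this rule and are given only within the counts of the secretory pathway. Apoa1, Selenop, Calr, Igf1, Pon3, Rarres2 and Stra6 were named after their values were seen. So were Cat, Slc14a1, Scp2, Ermap, Trmt1l, Eef1a1 and Cdo1. The number of arrays limits the precision.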

Additional observations from a re-analysis of the deposited data

How the results depend on the processing

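No tested ratio of the 3 genes passed in the settings that kept the deposited sign and the labelled-dye term. The array-block term gave Bche in HpHx-null at 0.59 past the threshold. The loadings in place of blocks took Serpina1e past it in Hx-null (0.54) and Hp-null (0.79), and reversed Ttr in HpHx-null (-0.0846) and Serpina1e between Hp-null and Hx-null (0.26). Arrays turned by the array blocks took Serpina1e (1.36 in Hx-null, 1.51 in Hp-null), Ttr in Hx-null (0.85) and Bche in Hp-null (0.77) past it, moved Ttr in Hp-null to 0.68, and reversed Serpina1e between Hp-null and Hx-null (0.15) and Bche between HpHx-null and Hp-null (-0.44). In this turned reading 45.5%, 54.5% and 39.9% of all features passed in Hx-null, Hp-null and HpHx-null. Loadings and blocks were drawn from these same values, so nothing is read from these passes. Arrays turned by the labelled dyes reversed Serpina1e (-0.031) and Bche (-0.027) in Hp-null, Ttr (-0.33) and Bche (-0.092) in HpHx-null and Bche between HpHx-null and Hp-null (-0.066), and moved Serpina1e in HpHx-null to -0.26. Quantile normalization reversed Serpina1e between Hp-null and Hx-null (0.24). Together with the array-block term it gave Serpina1e at 0.42, 0.66 and 1.14 in Hx-null, Hp-null and HpHx-null, and Ttr in Hp-null at -0.33. With single arrays left out under either term, Serpina1e ran from 0.046 to 1.08 in Hx-null, -0.29 to 1.14 in Hp-null and 0.68 to 2.05 in HpHx-null, Ttr from 0.14 to 1.11 in Hx-null, -0.86 to -0.29 in Hp-null and -0.30 to 0.40 in HpHx-null, and Bche from 0.40 to 0.92 in Hx-null, -0.29 to 0.48 in Hp-null and 0.42 to 0.86 in HpHx-null. Between nulls, Serpina1e ran from -0.94 to 0.49 (Hp-null minus Hx-null) and Ttr from -1.06 to 0.052 (HpHx-null minus Hx-null). Serpina1e ran from 0.025 to 1.40 (HpHx-null minus Hx-null), 0.15 to 1.66 (HpHx-null minus Hp-null) and -0.51 to 1.0 (HpHx-null minus the sum), and turned by the labelled dyes the first was -1.63. Ttr ran from -1.67 to -0.65 (Hp-null minus Hx-null), 0.25 to 0.95 (HpHx-null minus Hp-null) and -0.51 to 0.61 (the sum), and turned by the labelled dyes the last was -1.20. Bche ran from -1.01 to -0.23, -0.33 to 0.19, 0.11 to 0.88 and -0.61 to 0.16 for Hp-null minus Hx-null, HpHx-null minus Hx-null, HpHx-null minus Hp-null and the sum. The replicate block left Serpina1e in Hx-null at 0.65 and changed no call of the 3 genes; only 4 of 12 pairs of same-numbered arrays had deviations correlated above 0.1, so the numbers were not taken as pairs. Each gene had 1 clone, so single clones gave no other value.

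The count of features past the threshold was 12 in Hx-null, 0 in Hp-null, 0 in HpHx-null, 11 between Hp-null and Hx-null, and 0 in the other comparisons. In Hx-null it was 38 with the array-block term, 0 with the replicate block, 69 with loadings, 0 with arrays turned by dyes and 848 by blocks, 7 as deposited, 6 with quantile normalization, 0 with features on all 12 arrays and 132 in the genotype alone. With the block term it was also 82 as deposited, 59 with quantiles and 44 by equal spot number. In Hp-null it was 54 with blocks, 93 with loadings, 1100 turned by blocks, and with the block term 84 as deposited, 36 with quantiles, 5 unmoderated and 67 by equal spot number. In HpHx-null it was 91 with blocks, 7 without a term, 86 with loadings, 683 turned by blocks, 7 with features on all 12 arrays, and with the block term 116 as deposited, 105 with quantiles, 0 unmoderated and 94 by equal spot number. Between Hp-null and Hx-null it was 20 with blocks, 18 with loadings, 30 with blocks as deposited, 24 by equal spot number, and 0 with the replicate block, either turning, values as deposited, quantiles, features on all 12 arrays or the unmoderated test. Between HpHx-null and Hx-null it was 3 with blocks, 3 with loadings, 7 with blocks as deposited and 3 by equal spot number. With single arrays left out the counts ran from 0 to 87, 97, 93, 66, 5 and 6 in the 6 comparisons. The unmoderated test with blocks and the numbering with blocks were added after the data were seen. The cause of these moves was not tested.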

Other observations

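The genes beside Serpina1e at the top of the block difference were catalase (Cat, 2.98) and the urea transporter gene Slc14a1 (2.68), followed by the sterol carrier protein gene Scp2 (2.19). Further named genes above 1.9 included Ermap (2.05), Trmt1l (2.04), the translation factor gene Eef1a1 (2.03) and Cdo1, cysteine dioxygenase (2.01). These values rest on the same arrays that defined the blocks and are given as values.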
